A study of Mus musculus with 12 samples.

Results

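The genes described here are the histone genes that the counts table lists under the older mouse symbols beginning with Hist1h to Hist4h. The pattern was applied to the gene names of all 55367 rows and found 9 genes: the H2A genes Hist1h2al, Hist1h2an, Hist1h2ao and Hist1h2ap, the H2B genes Hist1h2bp, Hist1h2bq and Hist1h2br, and the H4 genes Hist1h4m and Hist1h4n. No H1 or H3 gene was among them. The same pattern applied to the GENCODE M21 names of the table's Ensembl identifiers found 61 further clustered histone genes, which the table lists under newer symbols such as H1f2 and H2bc4 (6 H1, 16 H2A, 16 H2B, 12 H3 and 11 H4 genes). Those 61 genes were picked out after the gene names in the table had been seen, and they serve only as a comparison.

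Replication-dependent histone genes supply the core histones H2A, H2B, H3 and H4 and the linker histone H1, which package newly made DNA. Their mRNAs classically end in a stem-loop in place of a poly(A) tail, the stem-loop is bound by the protein SLBP, and transcription from the clusters is driven through the coactivator NPAT as cells enter S phase. Whole blood consists mostly of mature cells that no longer divide.

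The RNA came from whole blood of mice of the CB17-SCID strain, which lack functional T and B cells and here carried xenografts of HT1376, a human bladder cancer line. Treated mice received CPI-0209 (written CPI0209 in the labels), an inhibitor of the histone H3 lysine methyltransferases EZH2 and EZH1, by mouth at 35 mg per kg once daily for 11 days, and blood was taken 1, 6 or 24 h after the last dose. Control mice received vehicle on the same schedule, and the labels do not give the time of their bleed. Each of the 4 groups had 3 libraries, all with the xenograft, and the labels give neither age nor sex, nor any meaning for the replicate numbers.

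The 8 protein-coding genes among the 9 lay in a single stretch of 50705 bases on mouse chromosome 13 (GRCm38, chr13:21786826-21837530), with none of the 61 newer-symbol genes between them. Hist1h2al, which GENCODE M21 classes as a processed pseudogene, lay apart at chr13:51202727-51203065 on the minus strand. Within the stretch, H2A and H2B genes stood head to head: 242 bases separated Hist1h2an (ENSMUSG00000069309) from Hist1h2bp (ENSMUSG00000069308), 267 bases separated Hist1h2bq (ENSMUSG00000069307) from Hist1h2ao (ENSMUSG00000094248), and 235 bases separated Hist1h2ap (ENSMUSG00000094777) from Hist1h2br (ENSMUSG00000069303). The order Hist1h2bq, Hist1h2ao, Hist1h4m (ENSMUSG00000069306) was repeated as a mirror image in Hist1h4n (ENSMUSG00000069305), Hist1h2ap, Hist1h2br. The coding sequences of the mirrored genes were identical, with 0 mismatches in 393 bases for Hist1h2ao and Hist1h2ap, 0 in 381 for Hist1h2bq and Hist1h2br, and 0 in 312 for Hist1h4m and Hist1h4n.

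**Figure D1:**
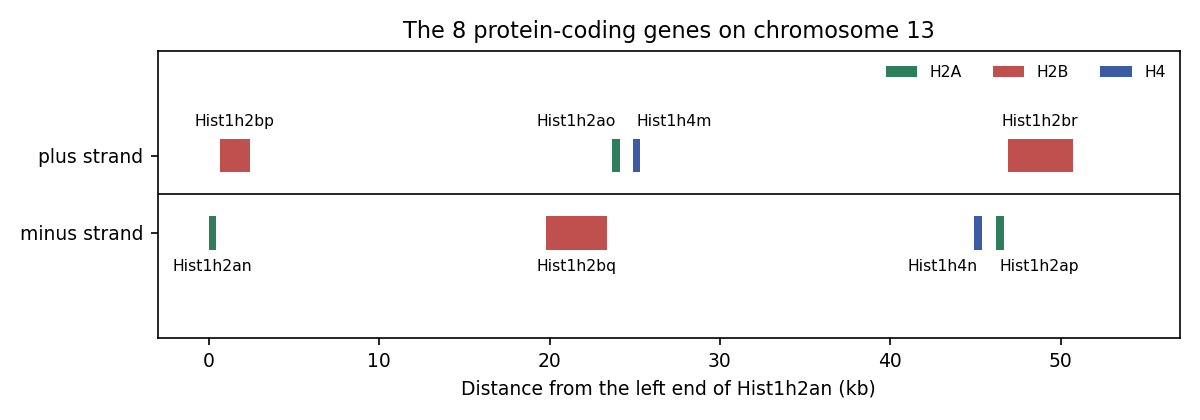
Positions of the 8 protein-coding genes along chromosome 13, as distance in kb from the left end of Hist1h2an, with plus-strand genes above the line and minus-strand genes below it, coloured by histone class. The group of 3 genes around 20 to 25 kb is repeated in mirror image around 45 to 50 kb.

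The promoters of the mirrored copies were also compared, as a description of sequence, and they differed hardly at all. RefSeq promoter entries (GRCm38.p6, 300 bases, with 250 before and 50 after the start) were matched for 8 of the 9 genes. The Hist1h2bq and Hist1h2br promoters were the same in all 300 bases, those of Hist1h4m and Hist1h4n in 298 of the 299 bases that overlap (99.7%), and those of Hist1h2ao and Hist1h2ap in all 200 bases that overlap. Below, from 5′ to 3′, capitals mark the motifs CCAAT and TATAAA on either strand in the promoters of Hist1h2bq (chr13:21810150-21810449, minus strand, also the sequence at Hist1h2br, chr13:21833493-21833792, plus strand), Hist1h4n (chr13:21832148-21832447, minus strand) and Hist1h2bp (chr13:21787238-21787537, plus strand).
Hist1h2bq: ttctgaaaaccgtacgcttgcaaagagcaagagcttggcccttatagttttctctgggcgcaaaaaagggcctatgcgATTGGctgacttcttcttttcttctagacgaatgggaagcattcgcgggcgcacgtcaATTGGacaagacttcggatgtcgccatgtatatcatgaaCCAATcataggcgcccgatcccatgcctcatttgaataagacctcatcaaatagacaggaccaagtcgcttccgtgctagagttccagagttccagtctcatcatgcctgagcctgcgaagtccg
Hist1h4n: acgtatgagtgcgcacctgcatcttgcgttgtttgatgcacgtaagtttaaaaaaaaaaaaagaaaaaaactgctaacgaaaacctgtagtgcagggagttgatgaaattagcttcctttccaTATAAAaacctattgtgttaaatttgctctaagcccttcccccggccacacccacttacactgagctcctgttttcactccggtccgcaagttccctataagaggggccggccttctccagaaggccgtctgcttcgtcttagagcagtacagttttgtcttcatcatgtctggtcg
Hist1h2bp: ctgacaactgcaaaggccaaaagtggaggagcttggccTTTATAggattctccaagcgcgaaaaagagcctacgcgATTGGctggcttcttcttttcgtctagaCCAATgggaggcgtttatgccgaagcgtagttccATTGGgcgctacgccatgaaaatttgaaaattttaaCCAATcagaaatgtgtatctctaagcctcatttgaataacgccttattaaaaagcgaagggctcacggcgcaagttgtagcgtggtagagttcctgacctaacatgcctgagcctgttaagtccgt

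CCAAT, searched on both strands, was in 6 of the 8 promoters, with 4 matches in Hist1h2bp and 3 in Hist1h2bq. It was in 48 of 55 promoters of newer-symbol genes and in 37.4% of all 32851 promoters. TATAAA was in 4 of the 8, among them Hist1h4n and Hist1h2bp, in 31 of the 55 and in 13.6% of all. The octamer ATTTGCAT was in 0 of the 8, in 14 of the 55 and in 1.74% of all. None of the 3 motifs contains another, and a match describes the sequence only. The entries of head-to-head genes overlap, and those of mirrored copies are nearly the same. The matches in the 8 promoters are therefore partly the same bases counted again and not separate observations.

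The 3′ histone stem-loop was present in the annotated transcripts of 5 of the 9 genes (55.6%), of 39 of the 61 newer-symbol genes (63.9%) and of 18 of the other 55380 genes in the annotation (0.0325%). The 5 sequences are shown, with the 16 bases of the stem-loop in capitals, because this is the element that marks the class, and paired copies are identical in every base that both lines hold. The H4 pair had one form of stem, and the H2A pair and Hist1h2bp another.
Hist1h4n: aactaaaGGCCCTTTTCAGGGCCatccaat
Hist1h4m: aactaaaGGCCCTTTTCAGGGCCatc
Hist1h2ap: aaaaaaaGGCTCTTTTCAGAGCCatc
Hist1h2ao: aaaaaaaGGCTCTTTTCAGAGCCatccaca
Hist1h2bp: acacaaaGGCTCTTTTCAGAGCCacccaca
The stem-loops lay at chr13:21831798-21831813 (minus strand), chr13:21812129-21812144 (plus), chr13:21833029-21833044 (minus), chr13:21810898-21810913 (plus) and chr13:21787923-21787938 (plus), in the same order. The Hist1h2ap and Hist1h4m models stop 3 bases after the stem-loop, whereas those of Hist1h2ao and Hist1h4n run on for 31. No annotated transcript of Hist1h2bq, Hist1h2br, Hist1h2an or Hist1h2al held the stem-loop. The Hist1h2an model is its coding sequence alone, 393 bases, and so could not show one. The same is true of some newer-symbol models, such as H2ac13 and H2bc13. The shares above therefore describe the annotated models and may be too low for the genes.

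Reads of 150 bases, the length given in the labels, could not always be placed on one gene. Of all 150-base windows in the annotated transcripts, the share found in no other gene was 7.64% for Hist1h2bq, 8.46% for Hist1h2ao, 9.01% for Hist1h2ap, 14.2% for Hist1h4m, 15.8% for Hist1h2br, 22.8% for Hist1h4n, 27.5% for Hist1h2an, 77.4% for Hist1h2bp and 100% for Hist1h2al. Hist1h4m and Hist1h4n shared windows only with each other, so the sum of the pair is read without other histone genes. Hist1h2an and the Hist1h2ao and Hist1h2ap pair also shared windows with newer-symbol H2A genes such as H2ac7 and H2ac11. The sources used here name RSEM as the counting tool but do not give its settings for dividing such reads. The level of a single copy is uncertain, and the sum of a pair is given beside it.

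Library totals ran from 6496573 to 9978215 counts. Levels are given as CPM, counts per 1000000, with totals scaled by the TMM method of edgeR. TMM factors were 1.03 to 1.12 in vehicle, 1.00 to 1.09 at 1 h, 0.766 to 0.812 at 6 h, and 1.33, 1.21 and 0.856 in the 24 h libraries. The median log2 fold change of all tested genes at 6 h was -0.04 under TMM and -0.50 when library totals alone were used. The 3 libraries taken at 24 h stood apart from one another: the summed level of 16 reticulocyte markers was 24724, 33322 and 67195 CPM there, against 41424 to 47376 CPM in vehicle. All 16 reticulocyte, 12 neutrophil, 10 monocyte and 10 platelet markers averaged over 1 CPM, as did 9 of 10 NK cell markers and 2 of 10 T and B cell markers, and the B cell gene Ms4a1 had 0 counts in all libraries. In such bulk blood, fewer cells of a type and less RNA per cell cannot be told apart.

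Hist1h4n was the most abundant of the 9 genes and, per kb of annotated exon and averaged over all libraries, of all 70 clustered histone genes, with 191 CPM per kb against 168 for the linker histone gene H1f2 and 154 for H2bc4. That first place rests on the division by length: the annotated model is 430 bases for Hist1h4n, 1560 for H1f2 and 1156 for H2bc4. In plain CPM over all libraries, H1f2 averaged 261 and H2bc4 178, above 82.1 for Hist1h4n. At 6 h H2bc4 and H1f2 stood above it per kb as well, with means of 215 and 209 CPM per kb beside 198 for Hist1h4n. It encodes histone H4, which pairs with H3 at the centre of the nucleosome. Its libraries had 85.4, 89.2 and 98.0 CPM with vehicle, 64.1, 67.5 and 62.4 CPM at 1 h, 78.1, 80.8 and 96.5 CPM at 6 h, and 92.6, 92.2 and 78.3 CPM at 24 h. All 3 libraries at 1 h lay below all of the others, and the 6 h and 24 h libraries overlapped vehicle. The mean was 64.7 ± 2.63 CPM at 1 h and 90.9 ± 6.44 CPM with vehicle (SD, n = 3 each).

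The log2 fold change of Hist1h4n at 1 h against vehicle was -0.49 (SE 0.14, 95% interval -0.80 to -0.18), with a raw p of 0.0041 and an adjusted p of 0.28 in edgeR's quasi-likelihood test over 13384 genes. It did not pass the threshold of 0.05, and 8.44% of all tested genes likewise had every 1 h library below every vehicle library. The adjusted p was 0.082 with DESeq2, 0.098 when only the 1 h and vehicle libraries were fitted and 0.30 with limma-voom. Set against 1 h instead, Hist1h4n had log2 fold changes of 0.40 at 6 h (SE 0.14, edgeR adjusted p 0.15) and 0.44 at 24 h (SE 0.14, edgeR adjusted p 0.59), with all 3 libraries higher in both, as in 18.1% and 5.64% of all tested genes. These 2 comparisons share the 1 h libraries with the first.

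Its copy Hist1h4m, with the same coding sequence, had 1 count in all 12 libraries together, at 24 h, against 8051 for Hist1h4n. The share of the pair's counts that Hist1h4n held was 99.9% in that library and 100% in the other 11. There the exact binomial intervals, which cover counting error only, began at 99.2% or above. They take every read as placed on the right copy, although most windows of the pair are shared, so they do not bound the true share. A level of up to 3 counts would correspond to 0.301 to 0.462 CPM in these libraries, by library totals without TMM scaling. The pair's sum therefore equals the Hist1h4n level given above to within that limit.

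**Figure D2:**
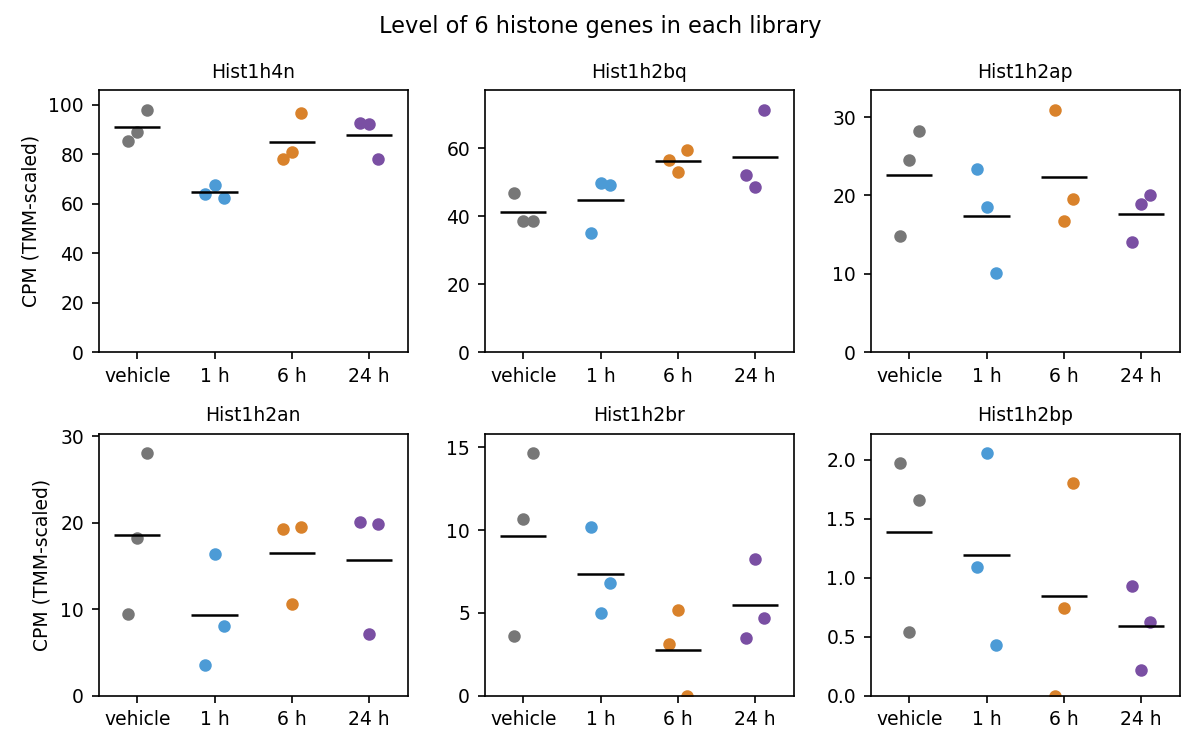
Level in CPM (TMM-scaled) of 6 genes in each of the 12 libraries (points), with group means as bars, for vehicle and for 1, 6 and 24 h after the last dose. Hist1h4n lies between 62.4 and 67.5 CPM in the 3 libraries taken at 1 h, below every other library.

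Of the H2B genes, whose product pairs with H2A in the nucleosome core, Hist1h2bq was the most abundant of the 3. It had 46.8, 38.7 and 38.6 CPM with vehicle, 35.0, 49.8 and 49.1 CPM at 1 h, 56.4, 52.8 and 59.4 CPM at 6 h, and 52.0, 48.6 and 71.3 CPM at 24 h. All libraries at 6 h and at 24 h lay above all vehicle libraries, as did 15.8% and 6.34% of the tested genes. The log2 fold change against vehicle was 0.44 at 6 h (SE 0.19, edgeR adjusted p 0.21), where it was -0.02 with library totals alone, and 0.47 at 24 h (SE 0.19, edgeR adjusted p 0.53). Neither passed the threshold, and without the third 24 h library, which had the highest reticulocyte level of that group, the 24 h value was 0.28; the part of such cells in it was not tested.

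Hist1h2br, with the same coding sequence and promoter, had lower group means than vehicle at each time. It had 3.60, 10.6 and 14.6 CPM with vehicle, 10.2, 5.02 and 6.78 CPM at 1 h, 3.14, 5.20 and 0 CPM at 6 h, and 3.49, 8.23 and 4.69 CPM at 24 h. The groups overlapped at every time, and the log2 fold change at 6 h was -1.78 (SE 0.75, edgeR adjusted p 0.20). With no filter on low counts that value was -1.79 with an adjusted p of 0.00016, and without the 6 h library that had 0 counts it was -1.19.

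The division of counts between Hist1h2bq and Hist1h2br varied more between libraries than their sum did. Hist1h2br held 7.14%, 21.6% and 27.5% of the pair's counts with vehicle and 22.6%, 9.15% and 12.1% in the 1 h libraries. The 6 h libraries had 5.26%, 8.96% and 0% (0 of 462 counts), and the 24 h libraries 6.29%, 14.5% and 6.17%. The exact upper limit for the 0% is 0.795%, but it takes every read as placed on the right copy. Most windows of the pair are shared, so it does not bound the true share. The shares overlapped those of vehicle at every time. Over the 12 libraries the coefficient of variation was 63.8% for Hist1h2br, 20.0% for Hist1h2bq and 13.4% for their sum.

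That sum averaged 51.0 ± 1.98 CPM with vehicle, 52.0 ± 5.89 CPM at 1 h, 59.0 ± 0.838 CPM at 6 h and 62.8 ± 11.4 CPM at 24 h (SD, n = 3 each). When the counts of both genes were added before the fit, a choice made after seeing the data, the log2 fold changes against vehicle were 0.03 at 1 h, 0.21 at 6 h and 0.30 at 24 h (SE 0.16 each), with edgeR adjusted p-values of 0.99, 0.51 and 0.66. None passed, and under library totals alone the sum at 6 h was lower than vehicle, with a log2 ratio of -0.25. The summed libraries ran from 58.0 to 59.6 CPM at 6 h and from 55.5 to 76.0 CPM at 24 h, all above the vehicle libraries at 49.3 to 53.2 CPM, as for Hist1h2bq alone.

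**Figure D3:**
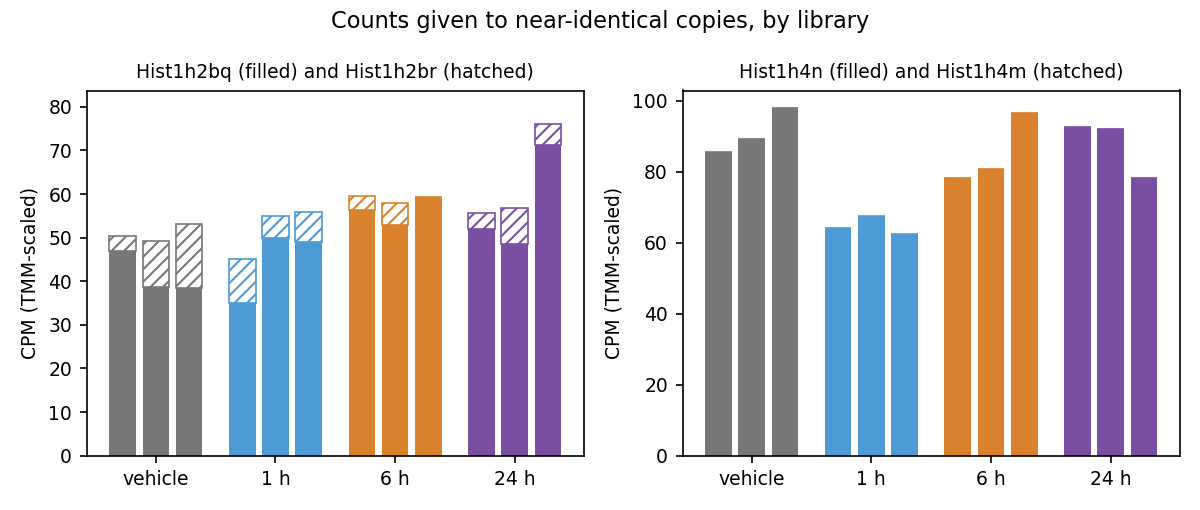
CPM (TMM-scaled) given to each gene of 2 near-identical pairs in every library, stacked, with 3 bars a group. The hatched Hist1h2br part is 0% to 27.5% of its bar, and Hist1h4m, with 1 count in all, is not visible on Hist1h4n.

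Hist1h2bp, the third H2B gene and the one with the most distinctive sequence of the 8, had 99 counts in all 12 libraries and at most 18 in one. Its mean was 1.39 CPM with vehicle, 1.19 CPM at 1 h, 0.847 CPM at 6 h and 0.591 CPM at 24 h, and the libraries overlapped at every time. The log2 fold change at 24 h was -1.22 (SE 0.93, edgeR adjusted p 0.78). At this depth its 95% interval, from -3.21 to 0.77, does not tell a fall from a rise.

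The H2A genes were Hist1h2ap and Hist1h2an, the 2 highest H2A genes of the 20 per kb, with 41.4 and 38.2 CPM per kb, together with Hist1h2ao and Hist1h2al. Hist1h2an had 9.41, 18.2 and 28.0 CPM with vehicle, 3.54, 16.4 and 8.08 CPM at 1 h, 19.3, 10.6 and 19.5 CPM at 6 h, and 20.0, 7.15 and 19.8 CPM at 24 h. All 3 libraries at 1 h were below the vehicle mean but not below every vehicle library, and the log2 fold change was -0.97 (SE 0.52, edgeR adjusted p 0.77). It was -1.65 without 1 h replicate 2 and -0.53 without vehicle replicate 3. With no filter on low counts the value at 1 h was -0.98 with an adjusted p of 0.040.

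Hist1h2ap had 14.9, 24.5 and 28.2 CPM with vehicle, 23.4, 18.5 and 10.1 CPM at 1 h, 30.9, 16.7 and 19.5 CPM at 6 h, and 14.1, 18.8 and 20.0 CPM at 24 h. The groups overlapped at all times, and the log2 fold changes were -0.38, -0.01 and -0.35 at 1, 6 and 24 h (SE 0.32 each, edgeR adjusted p 0.92, 0.99 and 0.83). Its copy Hist1h2ao had 0 counts in all 12 libraries, although 91.5% of its windows are also windows of Hist1h2ap. When all 13 genes that share windows with Hist1h2an, itself included, were added, the sum was 57.4 ± 16.3 CPM at 1 h and 86.2 ± 24.2 CPM with vehicle (SD, n = 3 each), and the libraries overlapped.

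The pseudogene Hist1h2al had 44 counts in all and fell below the filter. Its counts were 1, 8 and 16 with vehicle, then 1, 2 and 4 in the 1 h libraries, 3, 3 and 0 in the 6 h libraries, and 1, 5 and 0 in the 24 h libraries. The vehicle libraries ran from within the treated range to above it. No test was made for it.

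Across the 9 genes, 6 passed the filter and were tested: Hist1h2an, Hist1h2ap, Hist1h2bp, Hist1h2bq, Hist1h2br and Hist1h4n. None was called at 1 h, 6 h or 24 h against vehicle, where edgeR called 0.194%, 4.84% and 0.105% of all tested genes. None was called for the mean of the 3 times against vehicle (0.934% of all), for 6 h against 1 h (0.493%), for 24 h against 1 h (0.0224%) or for 24 h against 6 h (1.76%). At an unadjusted p under 0.05 there were 1, 2 and 1 of the 6 at 1, 6 and 24 h against vehicle, namely Hist1h4n at 1 h, Hist1h2br and Hist1h2bq at 6 h and Hist1h2bq at 24 h. Their p ranked 198, 2140, 2204 and 661 among the 13384 tested genes, in the same order, so many other genes had a p as small, above all at 6 h. The share of all tested genes under 0.05 is not given, and such counts, here and for the lists below, are description only. DESeq2, limma-voom and edgeR with RLE factors or with library totals alone also called 0 of them in all 7 comparisons. In counts simulated from these libraries, the same test recovered 32% of genes changed by 1 log2 unit and 72% of those changed by 2 for the 1 h comparison. For the 24 h comparison it recovered 22% and 64%. The changed genes were drawn at random from all tested genes, so these shares are not those of the 6 histone genes. At 24 h the SE of the 6 ran from 0.14 (Hist1h4n) to 0.93 (Hist1h2bp). The 6 h comparison was not simulated.

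The median log2 fold change of the 6 tested genes was -0.39 at 1 h, -0.13 at 6 h and -0.30 at 24 h, against -0.02, -0.04 and 0.01 for all tested genes. Without vehicle replicate 3 it was -0.11, 0.059 and -0.067. In each comparison with vehicle 5 of the 6 lay below 0, the exception being Hist1h2bq, which under library totals alone also lay below 0 at 6 h while Hist1h4n lay above 0 at 24 h. The 3 comparisons share the vehicle libraries, and copies share reads, so these values are not separate observations.

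**Figure D4:**
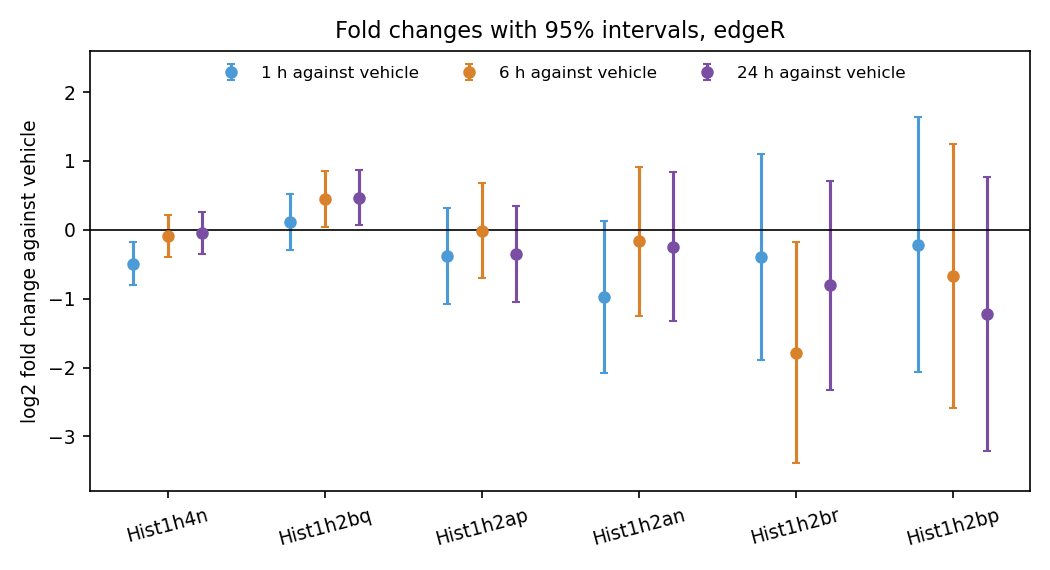
log2 fold change against vehicle of the 6 tested genes at 1, 6 and 24 h, with 95% intervals from edgeR. The narrowest intervals belong to Hist1h4n, at -0.49 for 1 h, and to Hist1h2bq, at 0.44 for 6 h and 0.47 for 24 h; no gene passed the threshold after adjustment.

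Summed over the 9 genes, the level was 185 ± 24.5 CPM with vehicle, 145 ± 12.8 CPM at 1 h, 184 ± 15.2 CPM at 6 h and 185 ± 9.53 CPM at 24 h (SD, n = 3 each), or 0.0136% to 0.0242% of a library's counts. The 1 h libraries ran from 137 to 160 CPM and the vehicle libraries from 162 to 211 CPM, without overlap. Against vehicle the log2 ratio of the means was -0.36 at 1 h, -0.01 at 6 h and -0.01 at 24 h, and with library totals alone it was -0.38, -0.46 and 0.06. By class at 1 h, the ratio was -0.64 for H2A, 0.02 for H2B and -0.49 for H4, so that H4 and H2A accounted for the lower sum; with library totals alone these were -0.67, -0.01 and -0.52.

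The newer-symbol genes gave the same order of classes at 1 h, with log2 ratios of -0.51 for H2A, -0.12 for H2B and -0.38 for H4, beside -0.13 for H1 and -0.48 for H3; this order was not tested. Unlike the sum of the 9 genes, their sum overlapped vehicle, at 748 to 1005 CPM at 1 h and 754 to 1122 CPM with vehicle, as did their sum in each class. Of the 61, 54 were tested and edgeR called 0 at each time against vehicle. Their median log2 fold change was -0.48 at 1 h, with 49 of 54 below 0, then -0.37 at 6 h with 42 and -0.17 at 24 h with 36. The difference between the 9 genes and the 61 was not tested.

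At 6 h the mean of summed H2B was above that of vehicle in both sets with TMM. Summed H2B of the 16 newer-symbol genes was 354 ± 45.2 CPM at 6 h and 271 ± 63.0 CPM with vehicle (SD, n = 3 each), against 59.9 ± 1.22 CPM at 6 h and 52.4 ± 2.49 CPM with vehicle for the 3 older-symbol genes, and both ratios were below 0 with library totals alone. Much of the newer-symbol sum came from H2bc4, at 248 ± 33.7 CPM at 6 h and 139 ± 23.9 CPM with vehicle (SD, n = 3 each), with a log2 fold change of 0.83 that did not pass (SE 0.34, edgeR adjusted p 0.18). The smallest p of these genes at 6 h belonged to H2bu2, at 1.49 (SE 0.48, edgeR adjusted p 0.093).

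**Figure D5:**
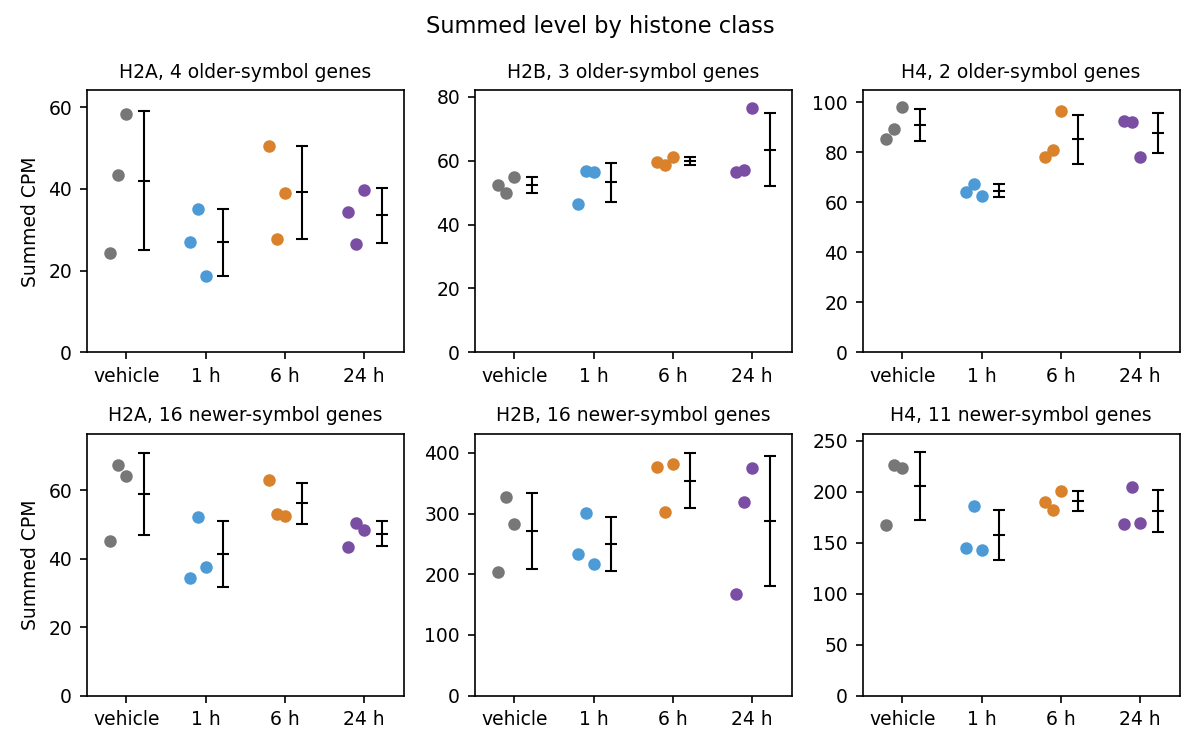
Summed CPM (TMM-scaled) of H2A, H2B and H4 genes in each library (points), with mean and SD beside them, for the older-symbol genes (top) and the newer-symbol genes (bottom). The older-symbol H4 level is 64.7 CPM at 1 h against 90.9 CPM with vehicle, with no overlap.

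Genes that make, process or chaperone histones were examined beside them. Of the 16 tested genes for histone transcription and mRNA processing, edgeR called 0 at any time against vehicle, with 1, 1 and 0 at an unadjusted p under 0.05 at 1, 6 and 24 h. Slbp, the stem-loop binding protein, averaged 21.9 ± 3.68 CPM at 1 h and 20.6 ± 0.265 CPM with vehicle (SD, n = 3 each), with a log2 fold change of 0.09 (SE 0.19, edgeR adjusted p 0.97). Npat, the histone gene coactivator, had 0.17 (SE 0.21, edgeR adjusted p 0.94). The smallest p of the list at 1 h was that of Casp8ap2, which encodes the NPAT-associated protein FLASH, at -0.99 (SE 0.39, edgeR adjusted p 0.59).

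None of the 20 S-phase genes was called at any time against vehicle, with 0, 0 and 1 at an unadjusted p under 0.05, the last being Pcna, the DNA polymerase clamp, at 24 h with -0.49 (SE 0.19, edgeR adjusted p 0.51). The summed S-phase level was 154 to 180 CPM at 1 h and 193 to 200 CPM with vehicle, without overlap. The S-phase sum was thus lower in every 1 h library than in any vehicle library, but without Ccne2 the libraries overlap. Ccne2, named after its values were seen, averaged 32.0 ± 2.48 CPM at 1 h and 47.4 ± 6.34 CPM with vehicle (SD, n = 3 each) and so held much of the difference in the sum. The median log2 fold change of the list was -0.14, with 15 of the 20 below 0. The summed level of 10 mitosis genes was above vehicle at 1 h, at 872 to 997 CPM against 547 to 682 CPM. Nusap1 and Ube2c held much of this difference, with means of 354 and 170 CPM at 1 h and 161 and 97.2 CPM with vehicle. The median log2 fold change of the 10 was 0.23 at 1 h, with 2 below 0. The part of cycling cells in the histone values was not tested.

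Of these 10 mitosis genes, edgeR called 2 at 6 h, both higher, as were 4.06% of all tested genes: Ube2c, an E2 enzyme of mitotic exit, with a log2 fold change of 2.03 (SE 0.32, adjusted p 0.0024), and Nusap1, a spindle protein, with 2.20 (SE 0.38, adjusted p 0.0038). The summed level of the 10 at 6 h was 1632 to 1695 CPM, against 547 to 682 CPM with vehicle. Nusap1 and Ube2c held much of the difference, with means of 741 and 397 CPM at 6 h. The median log2 fold change of the list was 0.52, with 1 below 0. The sum of the 9 histone genes was 167 to 197 CPM at 6 h and 162 to 211 CPM with vehicle. Mki67, a marker of cycling cells, had 0.62 at 6 h (SE 0.23, edgeR adjusted p 0.15).

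At 1 h, where Hist1h4n and the sum of the 9 genes lay below vehicle, the summed level of 10 monocyte markers was 3722 to 4524 CPM, against 5437 to 6602 CPM with vehicle, a log2 ratio of -0.51. The monocyte sum was also below every vehicle library at 6 h (4500 to 4904 CPM) and at 24 h (4580 to 4817 CPM). At those times Hist1h4n and the sum of the 9 genes overlapped vehicle. The median log2 fold change of the 10 monocyte markers at 1 h was -0.22, with 7 below 0. Of them, 4 had every 1 h library below every vehicle library, as did 8.44% of all tested genes. Of 16 reticulocyte markers 9 had every 1 h library above every vehicle library, as did 8.92% of all tested genes, and their sum was 46452 to 54778 CPM at 1 h and 41424 to 47376 CPM with vehicle. No marker was called at 1 h.

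At 6 h 10 of 16 reticulocyte markers were called higher, against 4.06% of all tested genes. The summed level of the 16 was 77012 to 90251 CPM at 6 h and 41424 to 47376 CPM with vehicle. Among the other marker lists, edgeR called at 6 h Mmp8 (neutrophil, 1.38), Kit and Gata2 (progenitor, 1.93 and 0.88) higher and Ccr2 (monocyte, -0.63) lower, with adjusted p-values of 0.046, 0.020, 0.044 and 0.048. These were 1 of 12 neutrophil, 2 of 10 progenitor and 1 of 10 monocyte markers, beside 4.84% of all tested genes called in either direction. No platelet, NK cell or T and B cell marker was called against vehicle. The part of these cell types in the histone values was not tested.

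Of 14 histone chaperones 1 was called against vehicle, higher at 6 h, as were 4.06% of all tested genes. It was Anp32e, which removes H2A.Z from chromatin, at 124 ± 30.4 CPM at 6 h and 55.9 ± 9.58 CPM with vehicle (SD, n = 3 each). Its log2 fold change was 1.15 (SE 0.27, edgeR adjusted p 0.025). None of the 9 tested genes on a list of histone variants was called against vehicle, with 0, 1 and 1 at an unadjusted p under 0.05. H3f3a, which encodes the variant H3.3, averaged 2834 ± 273 CPM at 6 h and 1579 ± 183 CPM with vehicle (SD, n = 3 each), with a log2 fold change of 0.84 that did not pass (SE 0.25, edgeR adjusted p 0.065). The other H3.3 gene, H3f3b, had -0.06 at 6 h (SE 0.14, edgeR adjusted p 0.86), and H2afx and H2afz, which encode H2A.X and H2A.Z, had 0.19 and -0.09 (edgeR adjusted p 0.76 and 0.80).

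None of the 6 PRC2 genes, which include the targets of the compound, was called against vehicle, with 0, 1 and 1 at an unadjusted p under 0.05. Ezh2 averaged 280 ± 22.6 CPM with vehicle, 213 ± 16.8 CPM at 1 h, 408 ± 33.4 CPM at 6 h and 219 ± 156 CPM at 24 h (SD, n = 3 each), and Ezh1 ran from 51.4 to 61.9 CPM in the group means. At 1 h, where Hist1h4n was lowest, Ezh2 had a log2 fold change of -0.40 (SE 0.36, edgeR adjusted p 0.92).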

How the data were processed

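The authors deposited whole-number counts per gene, not scaled to library size. Per the submitters' processing notes the tool was RSEM, with no version, so these may be rounded estimates. The notes name a human build, hg38, although the identifiers are mouse. The sources used here do not give the aligner, the annotation release or the use of strand. Per the labels' protocols, RNA came from a PAXgene blood kit and libraries from ribosomal RNA depletion.

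Genes were filtered with filterByExpr by group, which left 13384, and scaled by TMM. edgeR 4.0.16 in R 4.3.3 fitted 4 group means to all 12 libraries with the quasi-likelihood test. It tested 7 contrasts, with Benjamini-Hochberg adjustment over all tested genes and a threshold of 0.05. limma 3.58.1 and DESeq2 1.42.0 were alternatives. CPM values were computed from the counts with TMM-scaled totals, and positions came from GENCODE M21, which held 55111 of the identifiers. The test was tried on simulated data, with 4 false calls among 13072 genes at 1 h and 5 among 13076 at 24 h. With 3 libraries a group, an exact permutation test of one value cannot go below 0.1, so none is given. Nothing in the labels says the libraries are separate animals, so p-values measure the spread between these samples.

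The genes and lists were chosen with earlier results of these data known. The named genes are the 9 histone genes, list genes called against vehicle, list genes with the smallest p, and Slbp, Npat, Ezh2, Ezh1, Mki67, H3f3a, H3f3b, H2afx and H2afz. Named newer-symbol genes were chosen after their values were seen. Mitosis genes and the markers of 7 cell types were lists of the same kind.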

Additional observations from a re-analysis of the deposited data

How the results depend on the processing

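Alternatives were RLE factors, library totals alone, no filter, 5 CPM in 3 libraries, DESeq2, limma-voom, only the groups compared (not possible for the mean of the 3 times, which uses all groups), a replicate block and each library left out. The older-symbol count stayed at 0 except with no filter, which called 1 gene at 1 h (Hist1h2an), 6 h, the mean of the times and 6 h against 1 h (Hist1h2br in these 3), all lower; the cause was not tested. At 6 h, library totals alone moved the median to -0.58 and the sum to -0.46, as they moved all genes by a like amount. They turned Hist1h2bq at 6 h to -0.020 and Hist1h4n at 24 h to 0.034. Adding the copies, an alternative chosen after seeing the data, turned Hist1h2br to 0.029, 0.21 and 0.30 at 1, 6 and 24 h.

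Leaving out 1 library gave 0 calls in all 7 comparisons, and ranges that cross 0 for Hist1h2an at 6 h (-0.51 to 0.24) and 24 h (-0.56 to 0.19), Hist1h2ap at 6 h (-0.31 to 0.17), Hist1h2bp at 1 h (-0.88 to 0.20), Hist1h2br at 1 h (-0.77 to 0.058) and Hist1h4n at 24 h (-0.091 to 0.021). So did the median at 6 h (-0.31 to 0.059) and the sum at 6 h (-0.096 to 0.095) and 24 h (-0.093 to 0.099). Hist1h4n at 1 h stayed between -0.52 and -0.41.

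Newer-symbol calls, 0 in the fit reported, were 2, 3 and 1 with no filter at 1, 6 and 24 h, and 2, 2 and 1 for the mean of the times, 6 h against 1 h and 24 h against 6 h. Library totals gave 6 of the 54 at 6 h and 7 for 24 h against 6 h, where they called 1832 and 2951 of all 13384 tested genes. DESeq2 gave 1 at 6 h and 3 for 6 h against 1 h, where it called 1160 and 848 of all genes. Fitting only the groups compared gave 3 and 4 in these same 2 comparisons. The number over all genes is not given for that fit, for no filter or with a library left out, so those counts are description only. Leaving out 1 library gave 0 to 2 at 6 h, 0 to 3 for 6 h against 1 h and 0 to 4 for 24 h against 6 h, with the highest values without 24 h replicate 1, 24 h replicate 3 and 24 h replicate 3.

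The labels share replicate numbers, but same-numbered libraries deviated together weakly (r -0.11 to 0.17 over 18 pairs, 2 above 0.1; 6 of 12 libraries correlated best with their own number). With the replicate block, 0 older-symbol genes were called in any comparison, and Hist1h4n at 1 h was -0.49 (edgeR adjusted p 0.34). Depth limits Hist1h2bp, Hist1h2al, Hist1h2ao and Hist1h4m, and shared sequence limits every single copy.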
